A study of Mus musculus with 4 samples.

Results

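Phosphate balance in the kidney is set by a small group of genes, and 9 of them were followed here across the cell types of the mouse kidney cortex. They were chosen by name from a table of 19609 usable gene rows, and comprised the sodium-phosphate cotransporters *Slc34a1*, *Slc34a3*, *Slc20a1* and *Slc20a2*, the vitamin D hydroxylases *Cyp24a1* and *Cyp27b1*, the vitamin D receptor *Vdr*, the FGF23 co-receptor *Kl* (Klotho) and the parathyroid hormone receptor *Pth1r*. All 9 have a row in the table. In the proximal tubule, *Slc34a1* and *Slc34a3* encode NaPi-IIa and NaPi-IIc, the brush border carriers that reclaim most filtered phosphate, while *Slc20a1* and *Slc20a2* encode Pit-1 and Pit-2, which are expressed in many cell types and also serve as phosphate carriers. Parathyroid hormone (acting through *Pth1r*) and FGF23 (acting through Klotho and an FGF receptor) both withdraw NaPi-IIa from the brush border. Cyp27b1 makes active vitamin D, Cyp24a1 destroys it, and the *Cyp24a1* gene is itself a classic target of the vitamin D receptor.

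The samples were kidney cortices of 4 male mice of mixed strain, 1 per condition, profiled by single nucleus RNA sequencing. The control and control-AAI mice carried only the doxycycline-responsive human KLF6 transgene (TRE-hKLF6), which is silent without an activator. The OE and OE-AAI mice also carried CAG-rtTA, whose promoter is active in most tissues, so that human KLF6, a zinc finger transcription factor, was overexpressed throughout the body and not only in the tubule. The AAI-treated mice received 1 injection of 2 mg/kg aristolochic acid I, a plant toxin that injures the proximal tubule, and kidneys were taken 24 hours later; the other pair was uninjured. All 4 mice had eaten a doxycycline diet from 1 week before injury.

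The values were averages over the nuclei of 1 cluster in 1 mouse, in units per 10,000 transcripts counted, and 23 clusters in 4 mice gave 92 values for each gene. Normal PT below means the average of the 5 clusters of uninjured-type proximal tubule (2 of segments S1 and S2, named PT-S1-S2, and 3 of segment S3, named PT-S3). The table does not give the numbers of nuclei and reads behind each value, so no counting interval was computed, and with 1 mouse per condition no test was run. Differences were taken on log2(value + 1), which understates changes of weakly expressed genes, and a gene was called higher or lower when it differed by at least 0.2 on that scale and reached 0.5 in at least one of the values compared. In normal PT, mouse *Klf6* itself measured 0.215 in the control mouse, 0.406 in control-AAI, 0.137 in OE and 0.327 in OE-AAI, and this row does not show the human transgene, whose level was not analysed here. Of the PT markers *Slc5a2* was highest in PT-S1-S2-1 and *Cyp7b1* in PT-S3-2, as their names ask, and *Havcr1*, *Krt20* and *Cxcl1*, markers of tubular injury, were highest in InjuredPT-B. *Polr2a*, listed with them, was highest in InjuredPT-A, *Vcam1* was highest in EC-2, and the PT marker *Slc22a6* was highest in InjuredPT-A. None of the 4 endothelial markers was highest or second highest in EC-1, named endothelial, and this cluster and the mixed DCT_CNT held *Slc34a1* at 24.2 to 45.3 and 19.3 to 40.4.

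*Slc34a1* was strongest in the early proximal tubule (ENSMUSG00000021490; GRCm38 chr13:55398187-55415592, plus strand). In PT-S1-S2-1 it measured 79.5 in control, 54.9 in control-AAI, 66.6 in OE and 58.8 in OE-AAI, the highest of all clusters in each of the 4 mice. PT-S1-S2-2 followed at 45.6 to 73.8, PT-S3-1 came next at 31.6 to 65.6, and this order held in 4 of 4 mice although the ranges over mice overlapped. PT-S3-2 was far below at 5.35 to 16.6. *Slc34a3* (ENSMUSG00000006469; chr2:25228898-25234364, minus strand) was concentrated in PT-S1-S2-1, with 1.70 in control, 1.15 in control-AAI, 1.33 in OE and 1.44 in OE-AAI, none of which overlapped the 0.393 to 0.805 of PT-S1-S2-2. In PT-S3-1, PT-S3-2 and PT-S3-3 *Slc34a3* lay at 0.0588 to 0.209. Averaged over the 4 mice, normal PT held *Slc34a1* at 40.8 and *Slc34a3* at 0.469. Divided by gene span these were 2.35 and 0.0858 per kb, and whether these droplet counts scale with span was not tested. The nuclear reads include introns, and *Slc34a1* overlaps *Pfn3* on the opposite strand.

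The early and late segments could be compared within each uninjured mouse, as a description, because the clusters were defined from the same expression values. Of the 6 members that reached 0.5 in both uninjured mice, 3 were higher in PT-S1-S2 than in PT-S3 in both (*Slc34a1*, *Slc34a3* and *Pth1r*) and 0 were lower, against 14.7% of all genes higher and 12.9% lower. *Slc34a3* reached 0.5 only in PT-S1-S2, so it could not be called lower. *Slc34a1* averaged 76.6 in PT-S1-S2 and 46.3 in PT-S3 of the control mouse, and 62.2 and 34.2 in the OE mouse. *Pth1r* stood at 3.08 against 2.22 and at 2.87 against 2.34. Both type II carriers and the hormone receptor that regulates them were therefore higher in the early segments in both mice. *Slc20a2*, by contrast, was nearly level, at 1.08 against 1.15 in control and 1.07 against 1.01 in OE.

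**Figure D1:**
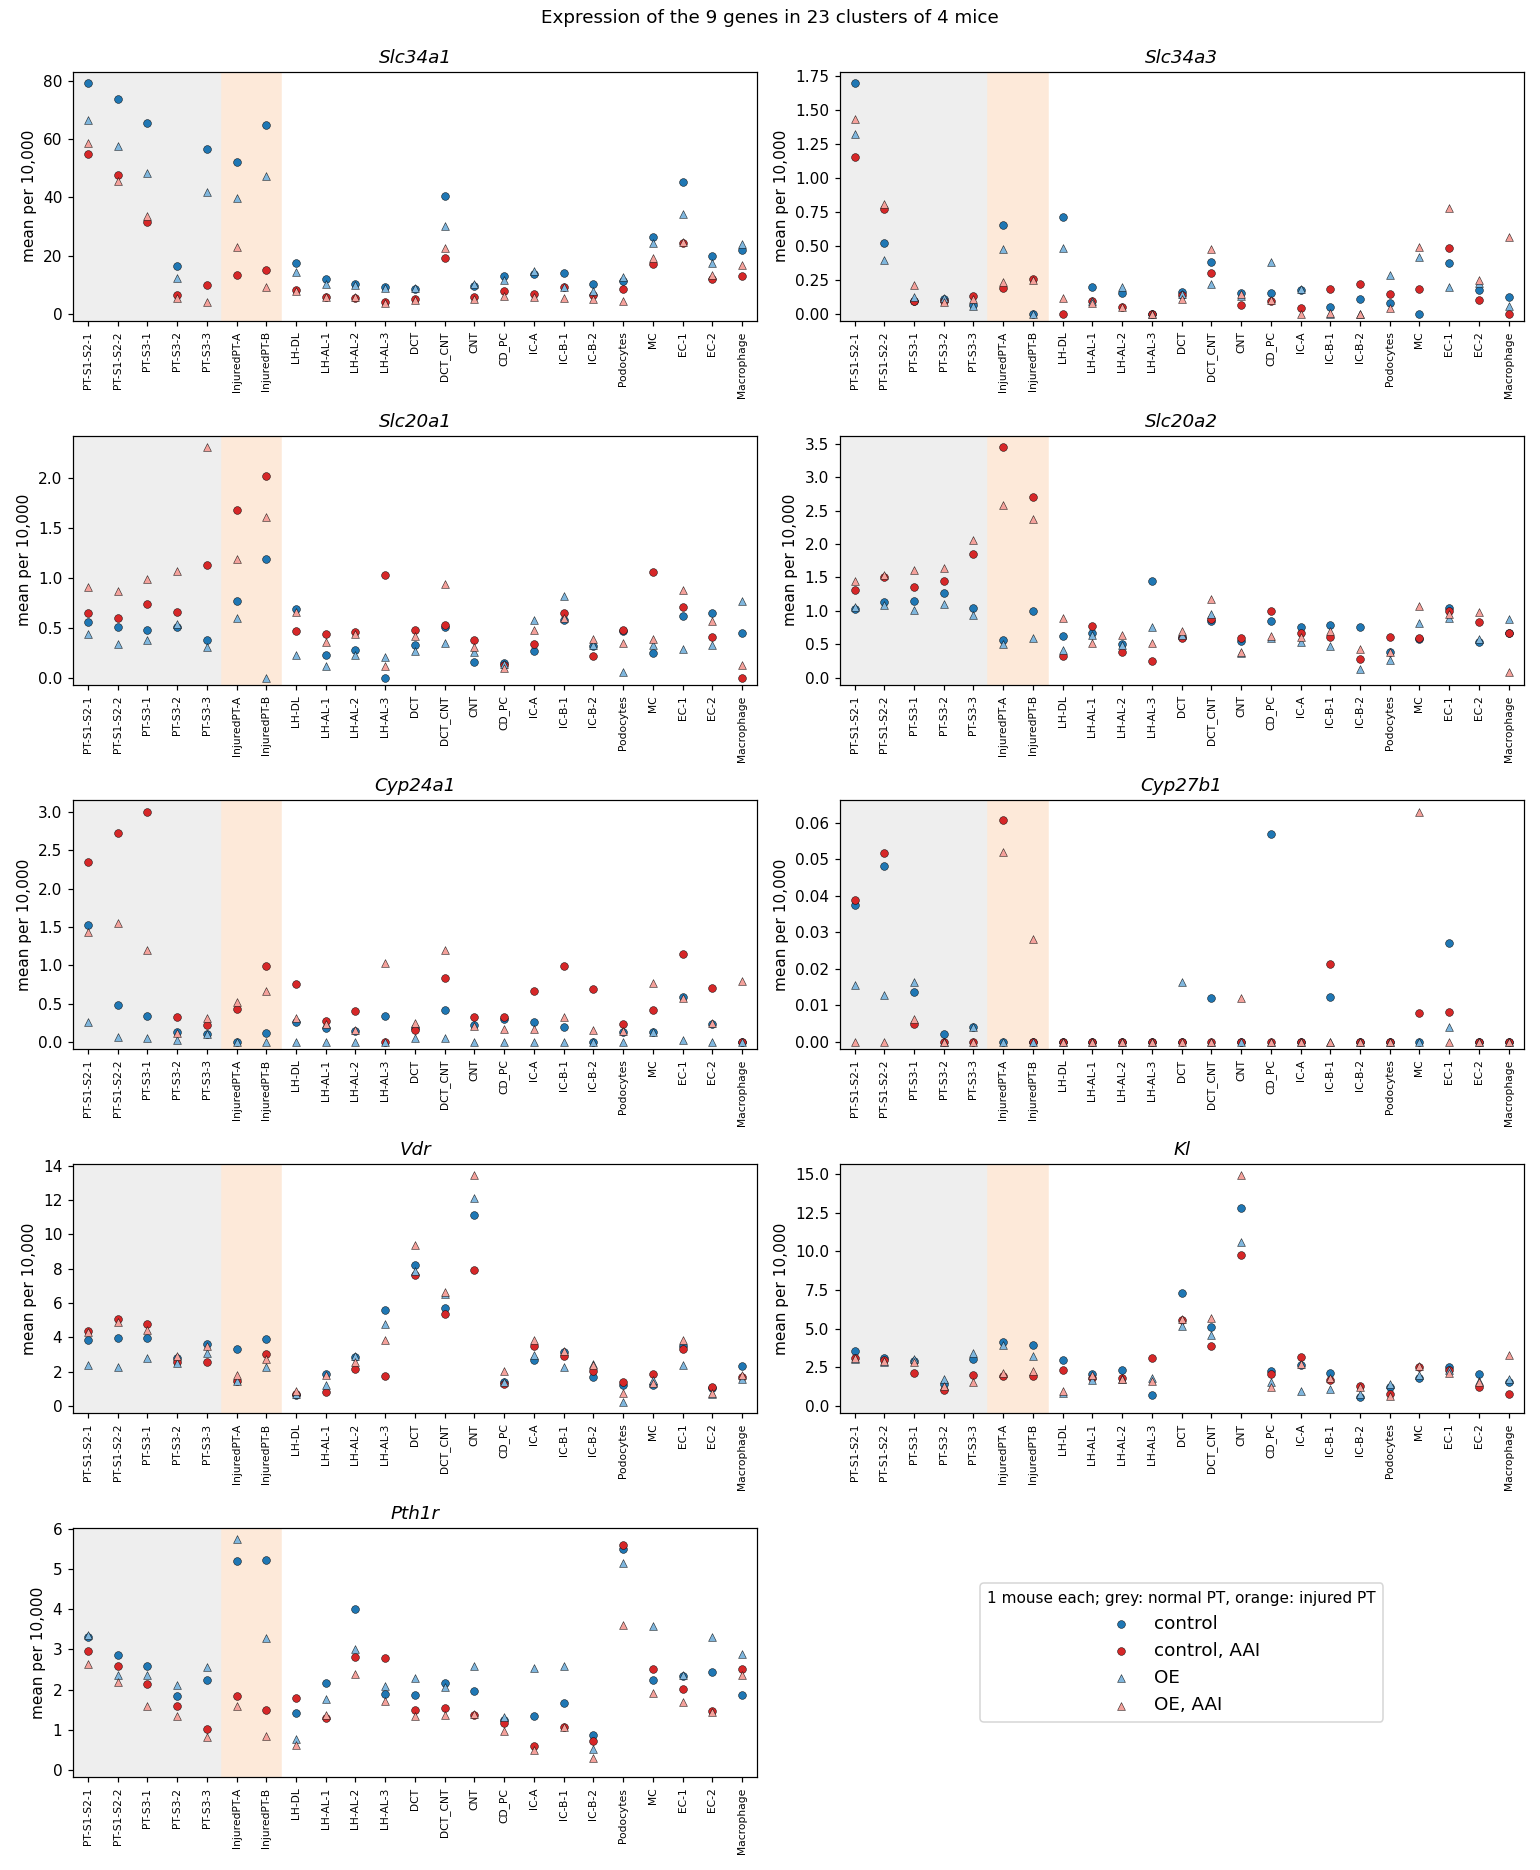
Mean expression per 10,000 of each of the 9 genes (y axes, separate scales) in the 23 clusters (x axis), with 1 point per mouse; the grey band marks the 5 normal PT clusters and the orange band the 2 injured PT clusters. *Slc34a1* and *Slc34a3* peak in PT-S1-S2-1, *Vdr* and *Kl* in CNT, and *Pth1r* in podocytes, where its lowest value of 3.59 belongs to the OE-AAI mouse.

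*Vdr* and *Kl* were highest in the distal nephron and not in the proximal tubule. *Vdr* (ENSMUSG00000022479; chr15:97854425-97910630, minus strand) measured 11.13 in control, 7.93 in control-AAI, 12.1 in OE and 13.4 in OE-AAI in CNT, the connecting tubule. DCT, the distal convoluted tubule, followed at 7.65 to 9.39, and the DCT_CNT cluster at 5.35 to 6.67, in that order in 4 of 4 mice. The DCT range did not overlap that of DCT_CNT but overlapped that of CNT. *Kl* (ENSMUSG00000058488; chr5:150952607-150993817, plus strand) measured 12.8 in control, 9.77 in control-AAI, 10.6 in OE and 14.9 in OE-AAI in CNT, above its range of 5.18 to 7.32 in DCT. These are the segments of hormone-regulated calcium reabsorption, in which Klotho is known to be abundant. Across the 92 values *Vdr* and *Kl* had a Pearson r of 0.71, a description of values that share mice, clusters and library depth.

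*Pth1r* was spread along the nephron and peaked in podocytes (ENSMUSG00000032492; chr9:110722085-110747145, minus strand; it overlaps *Myl3* on the opposite strand). Podocytes, the filtering epithelium of the glomerulus, held 5.48 in control, 5.59 in control-AAI, 5.15 in OE and 3.59 in OE-AAI. That was the highest of all clusters in 3 of 4 mice, the exception being the OE mouse, where InjuredPT-A reached 5.74. PT-S1-S2-1 held 2.64 to 3.36, and LH-AL-2, a cluster of the thick ascending limb, 2.39 to 4.00, so these neighbours were not separable.

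*Slc20a1* and *Slc20a2* had no such peak in uninjured mice. *Slc20a2* (ENSMUSG00000037656; chr8:22476788-22569612, plus strand; it overlaps *Smim19* and *Gm17491*) lay between 0.938 and 1.26 in the 5 normal PT clusters of the uninjured mice. *Slc20a1* (ENSMUSG00000027397; chr2:129198764-129211616, plus strand; it overlaps 2 opposite-strand genes) lay between 0.311 and 0.558 there. *Cyp24a1* (ENSMUSG00000038567; chr2:170482708-170497145, minus strand; it overlaps *Pfdn4* on the opposite strand) was highest in PT-S1-S2-1 of the uninjured control mouse, at 1.52 against 0.485 in PT-S1-S2-2. *Cyp27b1* (ENSMUSG00000006724; chr10:127048250-127053006, plus strand) was nearly undetected: 65 of its 92 values were 0 and the highest was 0.0630, so no comparison of it was made.

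Values outside a gene's own cell type need care in droplet data, because free RNA can enter any droplet. In DCT, LH-AL-1, LH-AL-2, CNT and podocytes *Slc34a1* stood at 14.4% to 28.6% of normal PT of the same mouse, and the medians of the 7 PT markers in the same clusters stood at 10.7% to 28.2%. In control-AAI it stood above that median in DCT (17.2% and 10.7%), CNT (18.6% and 11.6%) and podocytes (28.6% and 17.5%). The same held there for LH-AL-1 (18.5% and 14.7%) and LH-AL-2 (17.6% and 12.2%). In IC-A, intercalated cells, *Slc34a1* stood at 19.3% to 32.7% beside medians of 14.7% to 26.3%, and in EC-2 at 34.2% to 44.7% beside 24.04% to 37.1%. The other clusters were not compared in this way, and the share of free RNA in these values was not tested. *Vdr* and *Kl* were at 198% to 465% and 184% to 642% of normal PT in DCT and CNT, and *Pth1r* was at 202% to 271% in podocytes, all above the highest of these marker medians.

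The members with reference promoters allow the sequence ahead of the start site to be set beside these patterns. Of the 9 genes, 7 have an entry in the RefSeq promoter set (assembly GRCm38.p6). The 250 bases before the annotated start are shown, 5′ to 3′ on the gene's strand, for the carrier that was lower after AAI (*Slc34a1*), for a carrier that was higher (*Slc20a1*, its upstream start site) and for the pair with the distal peak (*Vdr*, *Kl*). Capitals mark GGGCGG, the core of the GC box to which Sp and KLF proteins bind, and AGGTCA, the half-site of many nuclear receptors, on either strand (CCGCCC and TGACCT when reversed). The *Slc34a1* and *Vdr* stretches lie inside the gene spans given above, because the RefSeq start differs from the outermost GENCODE end of the gene.
Slc34a1, chr13:55399398-55399647, plus strand: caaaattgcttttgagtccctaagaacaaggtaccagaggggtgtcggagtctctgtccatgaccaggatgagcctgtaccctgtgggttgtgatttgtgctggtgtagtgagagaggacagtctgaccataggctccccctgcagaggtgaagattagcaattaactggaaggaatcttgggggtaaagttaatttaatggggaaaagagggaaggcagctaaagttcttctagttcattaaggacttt
Slc20a1, chr2:129198523-129198772, plus strand: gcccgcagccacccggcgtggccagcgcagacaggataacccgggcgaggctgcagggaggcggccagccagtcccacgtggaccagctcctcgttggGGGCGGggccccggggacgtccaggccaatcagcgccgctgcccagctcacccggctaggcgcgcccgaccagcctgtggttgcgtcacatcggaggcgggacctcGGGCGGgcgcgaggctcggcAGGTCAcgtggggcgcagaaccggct
Vdr, chr15:97908297-97908546, minus strand: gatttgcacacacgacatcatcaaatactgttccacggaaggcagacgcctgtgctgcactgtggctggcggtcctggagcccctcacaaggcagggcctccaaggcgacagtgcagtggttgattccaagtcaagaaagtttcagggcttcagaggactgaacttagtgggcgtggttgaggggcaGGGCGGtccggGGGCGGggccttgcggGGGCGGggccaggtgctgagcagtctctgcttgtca
Kl, chr5:150952357-150952606, plus strand: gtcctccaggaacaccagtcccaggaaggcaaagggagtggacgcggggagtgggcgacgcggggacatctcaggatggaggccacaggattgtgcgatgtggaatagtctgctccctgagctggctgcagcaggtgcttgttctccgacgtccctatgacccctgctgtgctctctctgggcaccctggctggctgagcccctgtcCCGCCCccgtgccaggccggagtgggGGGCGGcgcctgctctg
The *Slc34a1* stretch held 0 copies of either motif and had a GC content of 46.4%. The *Slc20a1* stretch held 2 GC box cores and 1 half-site at 75.2% GC, *Vdr* held 3 cores at 61.2% GC, and *Kl* held 2 cores at 66.8% GC. Among all 32851 promoters of the set, 32.7% held GGGCGG and 14.02% held AGGTCA in the same window. A match describes letters only, and no binding was measured.

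In normal PT, *Slc34a1* was lower and *Slc20a1* and *Slc20a2* were higher in the AAI-treated mouse of each genotype. *Slc34a3* was called in neither, at 0.497 and 0.448 without and with AAI in the control genotype and 0.403 and 0.529 in OE. *Cyp24a1* was also higher, and *Kl* and *Pth1r* were slightly lower. In total 6 of the 7 members that could be compared in both genotypes passed the call in the same direction in both, 3 higher and 3 lower, where 7.66% of all genes were higher and 5.83% lower. *Slc20a1* in both pairs and *Cyp24a1* in the OE pair reached 0.5 only in the AAI-treated mouse, so neither could be called lower there. The control and OE pairs share no mouse, and each genotype was also called alone. In the control pair 3 of 7 were higher and 3 lower, against 11.7% and 11.25% of all genes. In the OE pair 4 of 8 were higher, *Vdr* being the addition, and 3 lower, against 19.5% and 15.4%. The median difference of the members tested was 0.07 in the control pair and 0.25 in the OE pair, beside 0.01 and 0.05 for all genes tested, since members moved in both directions.

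*Slc34a1* in normal PT measured 58.4 in control and 45.4 in OE, and 30.1 in control-AAI and 29.5 in OE-AAI. Both treated mice lay below both uninjured ones, and the treated pair differed by far less than the uninjured pair. The log2 difference with AAI was -0.94 in the control genotype, a 1.94-fold lower level, and -0.61 in OE, a 1.54-fold lower level. *Slc20a1* measured 0.487 and 0.403 without AAI and 0.753 and 1.23 with it, in control and OE, which gave differences of 0.24 and 0.67. *Slc20a2* measured 1.13 and 1.04 without AAI and 1.496 and 1.66 with it, for differences of 0.23 and 0.38. Pit-1 and Pit-2 transcripts thus stood higher in both treated mice than in either uninjured mouse. In normal PT of the 4 mice they averaged 0.718 (*Slc20a1*) and 1.33 (*Slc20a2*), beside 40.8 for *Slc34a1*. Divided by gene span these were 0.0559, 0.0143 and 2.35 per kb, which reverses the order of the Pit genes. Which scale compares genes better was not tested.

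*Cyp24a1*, the enzyme that inactivates vitamin D, measured 0.513 in control and 0.100 in OE, and 1.72 in control-AAI and 0.920 in OE-AAI. The log2 differences of 0.85 and 0.80 correspond to ratios of 3.36 and 9.20, the latter against a very low level. *Vdr* measured 3.64 and 2.61 without AAI and 3.87 and 4.02 with it. Its difference of 0.07 in the control pair was under the call, and that of 0.47 in the OE pair passed it. *Kl* measured 2.79 and 2.82 without AAI and 2.26 and 2.32 with it, and *Pth1r* 2.57 and 2.55 without and 2.06 and 1.72 with it. The log2 differences of *Kl* were -0.22 and -0.20, at the edge of the call, and those of *Pth1r* -0.22 and -0.38.

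For 7 of the 8 members that reached 0.5 in any mouse, the treated and uninjured mice did not overlap in normal PT, with 4 higher and 3 lower and *Slc34a3* the exception at 0.497 and 0.403 against 0.448 and 0.529. Among all genes 33.7% were higher without overlap and 21.99% lower without overlap. *Slc20a1* reached 0.5 only in the treated mice, the side on which it was higher. An exact two-sided permutation test of 2 mice against 2 cannot give a p below 0.333.

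**Figure D2:**
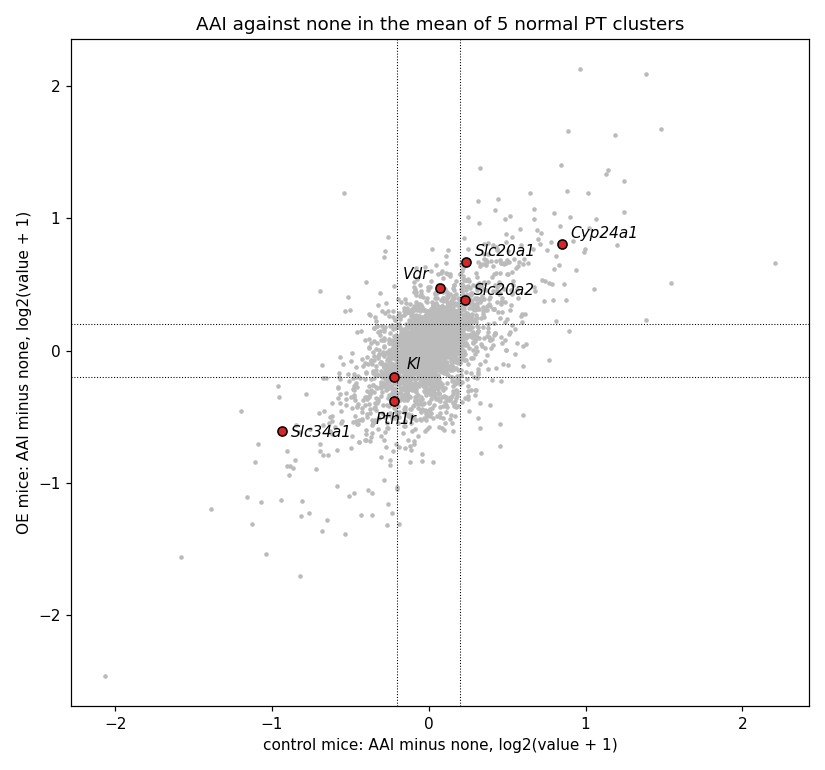
Difference between the AAI-treated and the uninjured mouse in normal PT, on log2(value + 1), in the control genotype (x axis) and the OE genotype (y axis); grey points are all genes tested in both pairs, red points the members, and dotted lines the call at 0.2. Among the members *Cyp24a1* (0.85 and 0.80) and *Slc34a1* (-0.94 and -0.61) lie farthest out, and *Vdr* passes only in the OE pair.

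The AAI difference was not even along the tubule. In PT-S3-3 *Slc34a1* measured 56.8 in control and 9.94 in control-AAI, and 41.8 in OE and 4.16 in OE-AAI, a 5.71-fold and a 10.1-fold lower level. In PT-S1-S2-1 the corresponding values were 79.5 and 54.9, and 66.6 and 58.8, the last pair differing by only -0.18. The lower level of the NaPi-IIa transcript was thus most marked in the late segment, which AAI is known to injure. *Slc20a1* in PT-S3-3 went the other way, from 0.380 to 1.13 in the control genotype and from 0.311 to 2.31 in OE, and *Slc20a2* from 1.05 to 1.85 and from 0.938 to 2.06. *Pth1r* was at 2.25 and 1.03, and at 2.55 and 0.830, the treated mice again below the uninjured. Of the 7 PT markers, *Cyp7b1*, highest in PT-S3-2, was 0.746 and 11.5 in the control genotype of PT-S3-3 and 1.22 and 20.1 in OE, while *Slc7a13* changed from 20.7 to 22.2 and from 13.9 to 18.6. In PT-S3-2, where *Cyp7b1* was 32.0 and 47.4 and then 37.1 and 48.3, *Slc34a1* was 16.6 and 6.32 in the control genotype and 12.3 and 5.35 in OE, also lower with AAI. A change within PT-S3-3 cells and a change in which cells fell into PT-S3-3 cannot be told apart.

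Leaving PT-S3-3 out of normal PT, an alternative chosen after the data were seen, left 2 members called in the control pair in place of 6. These were *Slc34a1* at a difference of -0.73 and *Cyp24a1* at 0.94, and both also held in the OE pair at -0.36 and 0.92. *Slc20a1*, *Slc20a2*, *Kl* and *Pth1r* no longer passed in the control pair, whereas 6 of the members stayed called in the OE pair (*Slc20a1* at 0.46, *Slc20a2* at 0.31, *Vdr* at 0.56 and *Pth1r* at -0.27 beside the former). Those 4 genes kept their direction in the control pair, at 0.13 for *Slc20a1*, 0.17 for *Slc20a2*, -0.17 for *Kl* and -0.13 for *Pth1r*, all under the threshold. In the 2 PT-S1-S2 clusters alone *Slc20a2* was still called higher in that pair, at 0.21. *Vdr* was called higher there too, at 0.23, and differed by -0.06 in the 3 PT-S3 clusters of the same pair. No share of all genes is given for these other sets of clusters. The change in counts is therefore not read as a result about the members.

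*Cyp24a1* had the opposite distribution, with its largest differences in clusters other than PT-S3-3. In PT-S3-1 it measured 0.343 in control and 3.00 in control-AAI, and 0.0559 in OE and 1.19 in OE-AAI. In the same cluster *Slc5a12*, a lactate carrier of the proximal tubule, was 2.72 and 8.24, and 2.59 and 24.4, and *Slc7a13* was 13.5 and 9.92, and 9.09 and 2.38, and their part in the result was not tested. In PT-S1-S2-2 *Cyp24a1* was at 0.485 and 2.72, and 0.0598 and 1.55. In PT-S1-S2-1, its highest cluster in the control mouse, the values were 1.52 and 2.35, and 0.259 and 1.43. PT-S3-2 and PT-S3-3 stayed at 0.323 or below in all 4 mice. The vitamin D-inactivating enzyme was thus most abundant after AAI in PT-S1-S2 and PT-S3-1, while among the 5 normal PT clusters of the treated mice the Pit carriers were highest in PT-S3-3.

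Over the 21 clusters outside the injured ones, *Slc34a1* was lower with AAI in both genotypes in 20 of 21 clusters and below 0 in 21 of 21, while 8.93% of all gene and cluster pairs were lower in both and 10.9% higher. Of these clusters 16 lie outside the proximal tubule. In those set beside PT markers above, *Slc34a1* stood at 14.4% to 44.7% of normal PT of the same mouse. How far free RNA carried the PT difference into them was not tested. *Cyp24a1* was higher in both genotypes in 5 of the 5 clusters where it could be compared. In the OE mouse, however, it was at 0.259 or below in every cluster, under the minimum value for a call. Clusters of the OE pair therefore entered only through OE-AAI and could not be called lower. The count of 5 of 5 is not read as a result, and its clusters come from the same mice. *Pth1r* was lower in both in 8 of 21 clusters. In the control pair it was lower in 8 and higher in 3, and in the OE pair lower in 18 and higher in 0. *Kl* was higher in both in 2 and lower in both in 3, with 12 lower and 3 higher in the control pair but 3 lower and 7 higher in the OE pair. No share of all gene and cluster pairs is given for 1 genotype alone. The single-pair counts of *Pth1r* and *Kl* are therefore not read as results about these genes. *Vdr* was higher in both in 3 and lower in both in 1. *Slc20a1* was higher in both genotypes in 2 of 10 clusters, and *Slc20a2* was higher in 3 and lower in 1 of 17.

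**Figure D3:**
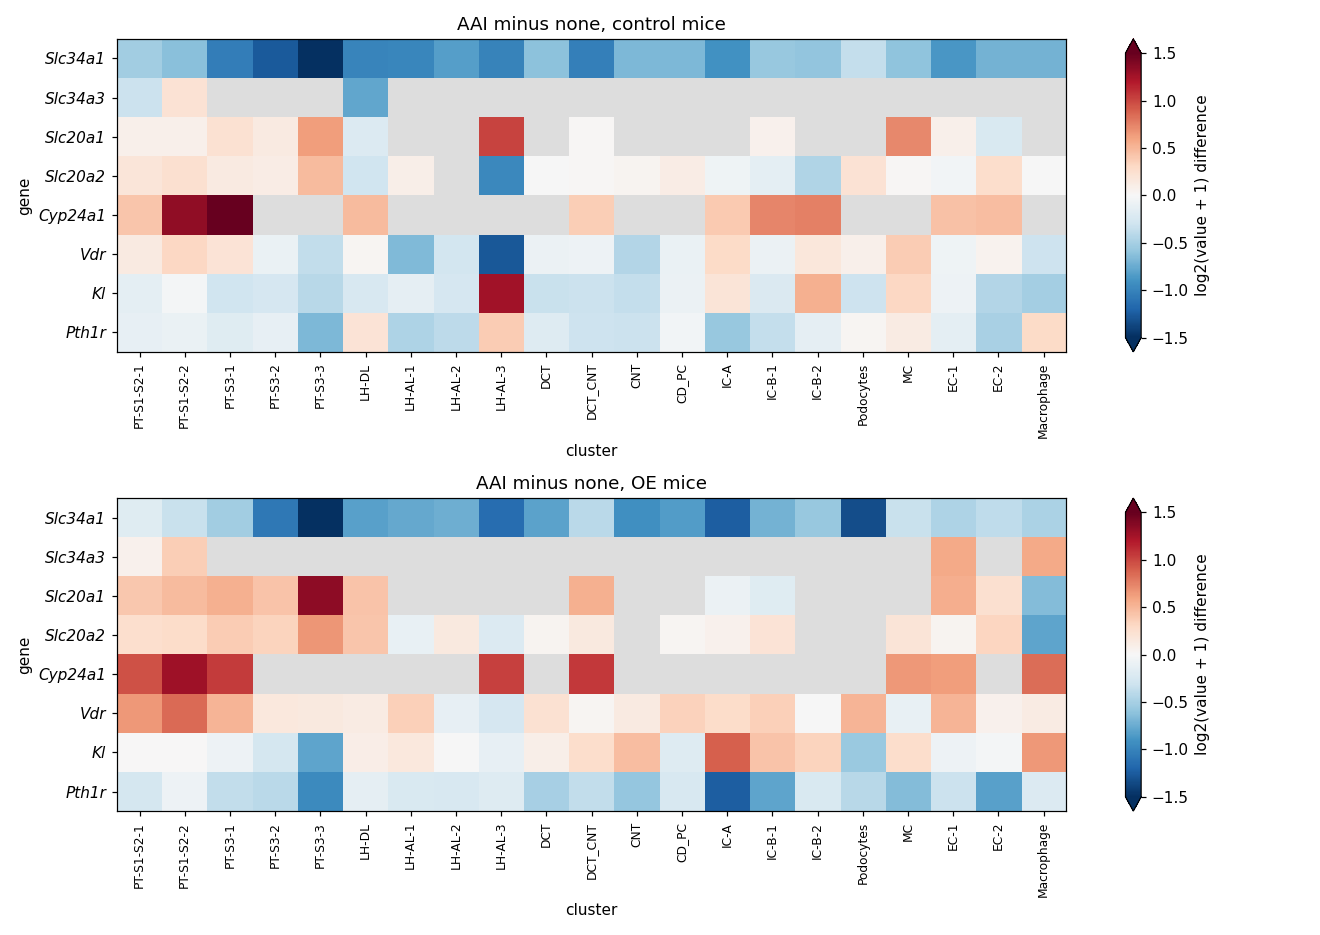
AAI minus uninjured difference on log2(value + 1) for 8 members (rows) in the 21 clusters outside the injured ones (columns), control mice above and OE mice below; grey cells did not reach 0.5 in either mouse, and the colour scale stops at 1.5 in either direction. *Slc34a1* is blue throughout with its darkest cell in PT-S3-3, and *Cyp24a1* is red in PT-S1-S2-2 and PT-S3-1 of both genotypes. The share of free RNA in the 16 clusters outside the proximal tubule was not tested.

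InjuredPT-A and InjuredPT-B, the clusters that the study named for injury, carried less *Slc34a1*, *Cyp24a1* and *Vdr* and more *Slc20a2* than normal PT of the same AAI-treated mouse. The comparison was made within each of the 2 AAI-treated mice, and a call needed both. The injured columns of the uninjured mice were left out, since 40.8% to 62.6% of all gene rows were 0 there, against 22.2% to 29.7% in the treated mice. In InjuredPT-A 1 of 7 members was higher and 3 were lower, where 43.3% of all genes were higher and 27.0% lower, so calls were common in this cluster. In control-AAI *Cyp24a1* reached 0.5 in normal PT but not in InjuredPT-A, so it could not be called higher there. In InjuredPT-B 2 of 7 were higher and 4 lower, where 23.4% were higher and 13.1% lower.

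*Slc20a2* reached 3.45 in InjuredPT-A of control-AAI and 2.58 of OE-AAI, beside 1.496 and 1.66 in normal PT of those mice, and these were its highest values of any cluster. In InjuredPT-B it measured 2.70 and 2.37. Pit-2 transcript was thus higher in both injured clusters of both mice. *Slc20a1* measured 2.03 and 1.61 in InjuredPT-B beside 0.753 and 1.23 in normal PT. In InjuredPT-A it was 1.68 in control-AAI but 1.19 in OE-AAI, the latter no higher than normal PT of that mouse. *Vdr* measured 1.48 and 1.78 in InjuredPT-A and 3.03 and 2.75 in InjuredPT-B, beside 3.87 and 4.02 in normal PT, so the vitamin D receptor was lower in both injured clusters and lowest in InjuredPT-A. *Cyp24a1* measured 0.426 and 0.521 in InjuredPT-A and 0.994 and 0.662 in InjuredPT-B, beside 1.72 and 0.920 in normal PT. Against PT-S3 of the same mouse it was called lower in InjuredPT-A of control-AAI (-0.61) but not in that of OE-AAI (-0.02) or in InjuredPT-B (-0.13 and 0.11). Against normal PT of the uninjured mouse of the same genotype it was called higher in InjuredPT-B (0.40 and 0.60) and in InjuredPT-A of OE-AAI (0.47), with -0.09 in InjuredPT-A of control-AAI. Against normal PT of the same mouse *Pth1r* was lower in InjuredPT-B alone, at 1.48 and 0.845 beside 2.06 and 1.72. *Kl* was not called in either, at 1.93 to 2.25 in the injured clusters beside 2.26 and 2.32. With normal PT of the uninjured mouse as reference, *Pth1r* was also called lower in InjuredPT-A (-0.33 and -0.45). *Kl* was then called lower in InjuredPT-A (-0.37 and -0.28) and InjuredPT-B (-0.36 and -0.23). With PT-S3 as reference *Kl* was called in neither, and *Pth1r* only in OE-AAI, higher in InjuredPT-A (0.20) and lower in InjuredPT-B (-0.29).

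*Slc34a1* measured 13.4 in control-AAI and 22.8 in OE-AAI in InjuredPT-A, and 15.1 and 9.30 in InjuredPT-B, beside 30.1 and 29.5 in normal PT. The log2 differences from normal PT were -1.11 and -0.35 in InjuredPT-A and -0.95 and -1.57 in InjuredPT-B, all toward lower NaPi-IIa. The reference mattered, however, because normal PT averages over segments that differ in *Slc34a1*. Against the 3 PT-S3 clusters of the same mouse, at 15.9 and 14.4, InjuredPT-A differed by -0.24 in control-AAI and by 0.63 in OE-AAI, which turned the direction, and InjuredPT-B by -0.08 and -0.58. With that reference 2 members stayed called in InjuredPT-A, *Slc20a2* (0.80 and 0.37) and *Vdr* (-0.80 and -0.73), and 1 in InjuredPT-B, *Slc20a2* (0.54 and 0.28). No share of all genes called is given for that reference, so these counts are not read as a result about the members. Among the members tested, higher *Slc20a2* was the difference that held in both injured clusters, both mice and both references.

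**Figure D4:**
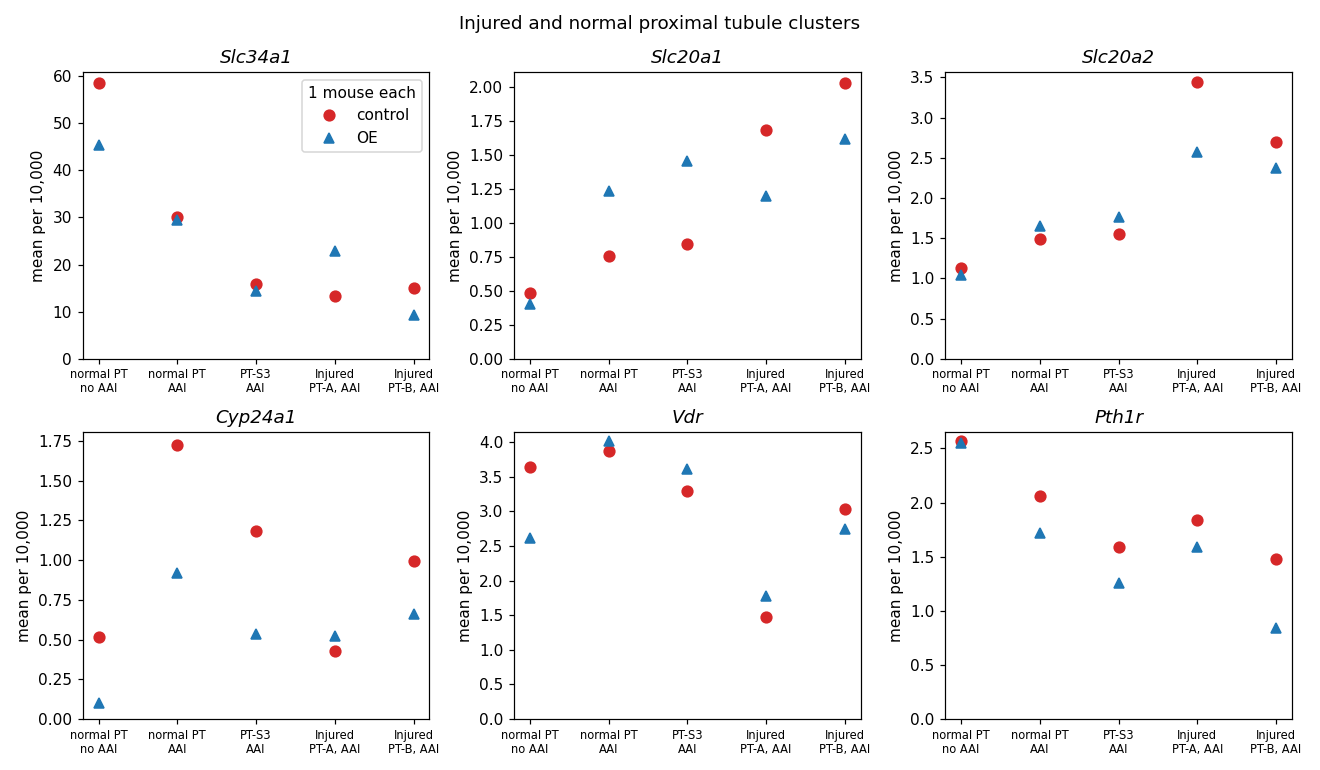
Mean expression per 10,000 (y axes from 0, separate scales) of 6 members in normal PT of the uninjured mice and in normal PT, PT-S3, InjuredPT-A and InjuredPT-B of the AAI-treated mice (x axis); red circles are the control genotype and blue triangles OE, 1 mouse each. *Slc20a2* is highest in the injured clusters in both genotypes, whereas *Slc34a1* in PT-S3 (15.9 and 14.4) is already near its injured values.

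KLF6 overexpression without injury went with lower *Slc34a1*, *Cyp24a1* and *Vdr* in normal PT. *Slc34a1* was 45.4 in OE and 58.4 in control (-0.36), *Cyp24a1* 0.100 and 0.513 (-0.46), and *Vdr* 2.61 and 3.64 (-0.36). These were 3 of the 6 members tested, with 0 higher, beside 9.33% of all genes lower and 7.84% higher. *Cyp24a1* reached the minimum of 0.5 only in the control mouse, so it could not be called higher. *Slc34a3* (0.497 in control and 0.403 in OE) and *Slc20a1* (0.487 and 0.403) fell just under that minimum and were not tested. *Cyp24a1* was 0 in 14 of the 23 clusters of the OE mouse, against 3 in control, 2 in control-AAI and 0 in OE-AAI. *Kl*, *Pth1r* and *Slc20a2* differed by 0.01, -0.01 and -0.06. Among the 7 PT markers 0 were higher and 3 lower (*Lrp2*, *Slc5a2* and *Slc7a13*) in the same comparison, and their part in the result was not tested.

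After AAI the picture differed. *Slc34a1* (29.5 in OE-AAI and 30.1 in control-AAI) and *Vdr* (4.02 and 3.87) were then nearly level between genotypes. *Cyp24a1* was still lower, at 0.920 and 1.72 (-0.50), and *Slc20a1* was higher, at 1.23 and 0.753 (0.35). These were the 2 calls among 8 members, 1 in each direction, beside 6.32% of all genes higher and 7.74% lower. In PT-S3-3 *Slc20a1* was 2.31 and 1.13 and *Slc34a1* 4.16 and 9.94, both farther from the uninjured values in OE-AAI. *Slc34a1* was also lower in OE-AAI in PT-S1-S2-2 (45.6 and 47.6) and PT-S3-2 (5.35 and 6.32). It was higher there in PT-S1-S2-1 (58.8 and 54.9) and PT-S3-1 (33.6 and 31.6). *Cyp7b1* in PT-S3-3 was 20.1 and 11.5, and its part in the result was not tested. The comparisons share mice with those of AAI (the uninjured control mouse, for example, enters both), so they are not independent of them, and whether the AAI difference itself depended on genotype was not tested, each condition holding 1 mouse. *Cyp24a1* was the member that was lower in OE with and without AAI.

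The genes around the members were taken from lists on the same pathways. Phosphate handling outside the members counted 12 genes in the table, 5 of them tested in both pairs for AAI. Of all genes 7.66% were higher and 5.83% lower in both genotypes, and of these 5 genes 2 were higher and 0 lower. These were *Alpl*, alkaline phosphatase, at 2.53 in control-AAI against 0.927 and 2.28 in OE-AAI against 1.52, and *Slc17a3*, a sodium-phosphate cotransporter family member that moves organic anions. In both injured clusters 4 of 5 were lower than normal PT and 1 was higher, where of all genes 27.0% were lower and 43.3% higher in InjuredPT-A and 13.1% lower and 23.4% higher in InjuredPT-B. The higher one in both was *Galnt3*, the glycosyltransferase that protects FGF23 from cleavage, at 2.60 and 1.98 in InjuredPT-A beside 1.12 and 1.34. The list's median difference was -0.81 and -0.78 in InjuredPT-A, beside 0.19 and 0.15 for all genes tested. *Slc17a3* was among the lower, at 3.34 and 2.14 beside 13.3 and 8.36.

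Of the genes for PTH signalling and for the scaffold of NaPi-IIa, 10 of 23 could be tested for AAI and 1 was higher, *Pdzk1*, a PDZ protein that binds the tail of NaPi-IIa, at 6.61 against 5.26 in control and 7.82 against 5.26 in OE, with 0 lower. These counts were near the shares of all genes, 7.66% higher and 5.83% lower. The median differences of 0.07 and 0.02 lay near those of all genes, 0.01 and 0.05. In InjuredPT-A 4 of 13 were higher and 7 lower, against the 43.3% and 27.0% of all genes, led by *Gnas*, the stimulatory G protein, at 2.45 and 2.94 beside 1.27 and 1.16, and by *Pde4d*, a cAMP phosphodiesterase, at 6.52 and 8.78 beside 71.2 and 61.7. In InjuredPT-B 2 of 14 were higher and 5 lower, against 23.4% and 13.1%, and *Pde4d* again had the largest difference among the lower, at 30.5 and 24.9.

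For FGF23 signalling 8 of 15 genes were tested with AAI, 1 being higher and 1 lower, near the 7.66% and 5.83% of all genes. *Egr1*, an immediate early gene that FGF23 induces among many other stimuli, was 2.11 against 0.420 in the control genotype and 2.02 against 0.199 in OE. *Fgfr2* was lower, at 2.18 against 3.06 and 2.00 against 3.06. In InjuredPT-A *Dusp6*, a feedback phosphatase of the ERK pathway, had the largest difference among the 4 higher of 8, at 1.20 and 1.48 beside 0.280 and 0.246, and *Fgfr1*, the receptor that pairs with Klotho, was the 1 that was lower, at 0.510 and 0.549 beside 0.858 and 0.833, where 43.3% of all genes were higher and 27.0% lower.

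Vitamin D uptake and receptor partners gave 1 higher and 1 lower of 10 tested with AAI, near the 7.66% and 5.83% of all genes. *Cubn*, cubilin, which takes up the vitamin D-binding protein, was 10.2 against 5.18 in control and 7.57 against 5.05 in OE, and *Ncoa3*, a receptor coactivator, was 2.52 against 3.20 and 1.84 against 2.35. In InjuredPT-A 3 of 11 were higher and 7 lower, against 43.3% and 27.0% of all genes, with *Dab2*, an endocytic adaptor, at 7.98 and 6.23 beside 42.0 and 32.0. In InjuredPT-B 2 of 12 were higher and 3 lower, against 23.4% and 13.1%, the lower ones being *Lrp2*, *Cubn* and *Dab2* of the uptake pathway. Calcium transport and vitamin D targets counted 3 tested genes with AAI, 0 higher and 0 lower in both genotypes, beside the *Cyp24a1* differences above. In InjuredPT-A 3 of its 4 tested genes were higher (*Calb1*, *S100g* and *Slc8a1*), where 43.3% of all genes were. *Slc8a1*, a sodium-calcium exchanger, measured 2.03 and 4.54 there, beside an average of 323 over the 4 mice in CNT, and the source of these low levels was not tested.

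The genes whose pattern over the 92 values was most like each member were found by Pearson r among 7724 genes reaching 1 in some value. For *Slc34a1* they were *Ndrg1*, *Acsm2* and *Tnfaip8* (0.91 each), and for *Slc34a3* *Prodh2*, *Gm12962* and *4921539H07Rik* (0.82, 0.82 and 0.81). For *Slc20a1* they were *Nqo1*, *Svop* and *Cxcl1* (0.69, 0.69 and 0.68), and for *Slc20a2* *Srr*, *BC035947* and *Clrn3* (0.76, 0.76 and 0.75). *Cyp24a1* was most like *Gria3*, *Alpl* and *Slc2a2* (0.73, 0.71 and 0.71). *Vdr* was most like *Ush1c*, *Sgms2* and *Whrn* (0.76, 0.75 and 0.74), *Kl* like *Trpv5*, *Emx1* and *Calb1* (0.74, 0.73 and 0.72), and *Pth1r* like *Miox*, *Khk* and *Cyp2e1* (0.60, 0.60 and 0.59). The neighbours of *Kl* included *Trpv5* and *Calb1*, the calcium channel and the calcium-binding protein of the distal tubule. *Cyp27b1* was left out because it never reached 1. Among the members themselves *Slc20a1* and *Slc20a2* had an r of 0.64 and *Slc34a1* and *Slc34a3* of 0.59.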

How the data were processed

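Nuclei from 4 kidney cortices, stored in RNAlater, were sequenced by droplet. The authors aligned reads to a mouse pre-mRNA reference (mm10) with Cell Ranger, excluded nuclei by detected genes and mitochondrial share, clustered with Seurat, and handled all samples as 1 technical batch; doublet removal for these nuclei was not given in the sources used here. The deposited signal is a mean per cluster and mouse, normalized by the authors so that each of the 92 columns sums to 10000. Cluster numbers were matched to names through the order of the study's marker sheets, and 7 of 7 sheets held whole matched. The names of the other 16 clusters rest on sheet order and markers alone. Of 19632 rows, 23 with names turned into dates were left out.

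Groups came from the labels, with 1 mouse each. Differences of log2(value + 1) were called at 0.2 where a value reached 0.5. The procedure was run on simulated counts, with changes well above the call in well-expressed genes and no spread between mice. That run cannot show how reliable calls of weakly expressed members are with 1 mouse per condition. The members and 5 gene lists were chosen with earlier results of these data known. Named genes were the members, the largest called rise and fall per list and comparison, and the 3 most similar genes per member; other list genes named were added to say which members a count holds. Markers of each cell type were set beside the cluster names. Alternatives were another pseudocount, minimum, threshold, centring and reference, and other sets of PT clusters. Positions are from GENCODE (GRCm38). Python 3.11.15, numpy 2.4.6, pandas 2.3.3 and matplotlib 3.10.9 were used.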

Additional observations from a re-analysis of the deposited data

How the results depend on the processing

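The counts of called members depended on the settings as follows. With a threshold of 0.5 in place of 0.2, 1 member was called in InjuredPT-A (4 before), 1 in InjuredPT-B (6), 2 with AAI in the control genotype (6), 3 with AAI in OE (7), 0 for OE against control without injury (3) and 1 with AAI (2). With a minimum value of 2 the counts were 3 in InjuredPT-B, 3 and 4 with AAI in control and OE, and 0 for OE against control with AAI. A pseudocount of 0.1 gave 4 for the last. Against the 3 PT-S3 clusters 2 were called in InjuredPT-A and 1 in InjuredPT-B. Without PT-S3-3, chosen after seeing the data, 2 were called with AAI in the control genotype. Fewer genes pass a higher minimum or threshold by construction, and the cause of the other shifts was not tested. Shares of all genes under these settings are not given, so the counts alone are not results about the members. Of 127 single differences of members, 117 kept their call when centred on the median of all genes, 7 gained and 3 lost it, and with a pseudocount of 0.1, 117 kept it and 10 gained it; 0 changed direction. No paired analysis was possible because the labels give no replicate numbers that pair mice, so the AAI differences of the genotypes stand side by side without a test. Leaving out a replicate was not possible with 1 mouse per condition. Depth per value is not given in the table, which limits every weakly expressed member.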
